A study of Mus musculus with 15 samples.

Results

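The comparison concerns adult small intestinal organoids in which a human YAP transgene was switched on with doxycycline (DOX), set against the same kind of organoid cultured without DOX. Its libraries were taken by the column names of the deposited organoid count table, 3 with DOX and 3 without, which makes 6 of the 15 libraries of the series. Organoids are epithelial cultures that grow as closed cysts or budding structures in a matrix gel. All 6 libraries came from proximal small intestine of the TetON-hYAP/H2B-mCherry genotype, in which DOX switches on YAP with the S127A mutation, a form that is constitutively active. H2B-mCherry is a red fluorescent histone that marks nuclei. The 3 control libraries carried the same alleles and were labelled Control, and the 3 treated libraries were labelled Doxycyclin. DOX and the transgene were present together in every treated library, and no organoids without the transgene received DOX, so an effect of YAP and an effect of DOX itself cannot be told apart. The dose and duration of DOX, the cell type that drives the switch, and the age, sex and strain of the mice are not stated in those sources that were used here. For these libraries the labels do not say whether replicates were separate animals or separate cultures of one line, so p-values measure the spread between libraries, which may be technical. A further 3 libraries of wild-type C57Bl/6J fetal organoids (FEnS, E16.5, pools of fetuses) stand in the same table. They were fitted together with the 6 libraries, so they entered the filter, the scaling and the estimate of spread behind the p-values. Their levels are also given, without a test.

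The table holds 27179 rows of counts, and 0 of them carry a gene identifier. The rows are therefore described by level, size and direction of change. The YAP transgene, endogenous Yap1 and the epithelial markers that would check the labels were not analysed here, and no protein or promoter sequence could be tied to a row.

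YAP is a transcriptional coactivator that cannot bind DNA by itself and works through the TEAD transcription factors. The kinases of the Hippo pathway phosphorylate it and hold it in the cytoplasm, and replacing the serine that S127A removes makes YAP less sensitive to that control. In the gut, YAP is known for its role in regeneration after injury and for a growth state that resembles fetal epithelium. The series title names YAP signalling as a regulator of how the intestinal epithelium matures, and the comparison asks what its induction changes in adult cells.

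The libraries did not spread evenly. Total counts were 31966993, 24904044 and 12724510 in replicates 1 to 3 without DOX, and 23789118, 27964344 and 36977226 with DOX. Replicate 3 without DOX was the shallowest of the 6 and also stood apart in what it held. As a measure free of any normalization, the share of counts that 2 libraries place in different rows was computed for each pair. Without DOX, replicates 1 and 2 placed 2.89% of their counts differently, but replicate 3 differed from them by 23.6% and 23.0%. With DOX, replicates 2 and 3 differed by 2.45%, and replicate 1 differed from them by 5.28% and 5.92%. Every pair of libraries, those of the same group included, differed more than counting error allows (chi-square over its degrees of freedom 6.38 or higher), and each library was used as its own sample. The biological coefficient of variation was 35.6% in the libraries without DOX, 4.29% with replicate 3 left out, and 8.40% with DOX.

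The 9 pairs that cross the groups placed 29.3% ± 4.50 (SD over pairs, which share libraries) of their counts differently, with a range from 25.5% to 36.2%. The 6 crossing pairs that leave out replicate 3 without DOX lay between 25.5% and 27.1%, far above the 2.45% to 5.92% among the other pairs of one group. The 3 crossing pairs that hold it lay between 33.2% and 36.2%. Replicate 3 was thus further from the DOX libraries than replicates 1 and 2 were, and it was nearly as far from replicates 1 and 2 as these were from DOX. Leaving out the 100 rows of highest mean share gave 29.3% again.

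**Figure D1:**
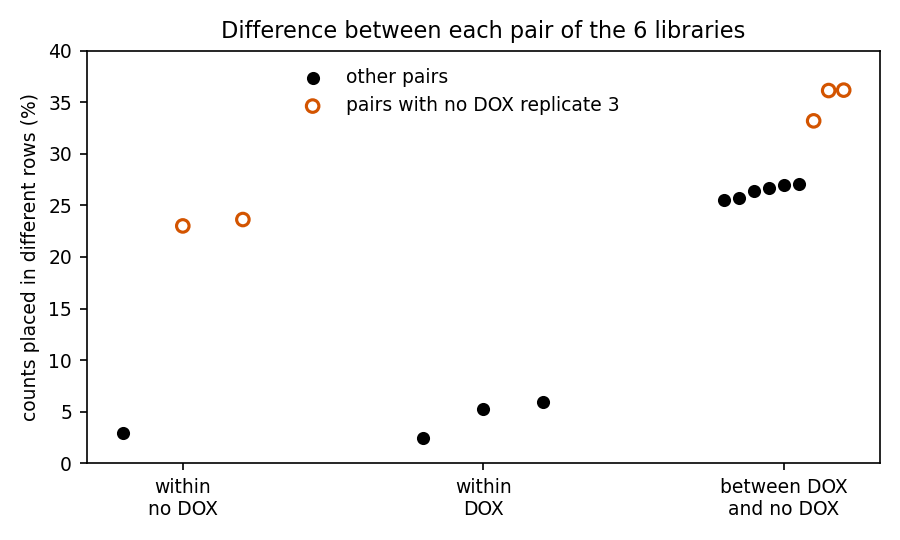
Share of counts (percent) that each pair of the 6 libraries places in different rows, for pairs within the group without DOX, within the group with DOX and between the groups. Each point is a pair of libraries, and open circles are pairs that hold replicate 3 without DOX. Pairs between groups lie from 25.5% to 36.2%, and the 2 open circles within the group without DOX lie at 23.0% and 23.6%.

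The departure of replicate 3 did not run along the change with DOX. With replicate 3 left out, 11416 rows were called. In 5284 of them (46.3%) replicate 3 lay beyond replicates 1 and 2 on the side away from the DOX libraries. In 738 (6.46%) it lay within the range of replicates 1 and 2, and in 3178 (27.8%) it lay between them and the DOX libraries. It stood within the DOX range in 587 rows (5.14%) and beyond it, on the same side, in 1541 (13.5%). Replicates 1 and 2 overlapped the DOX libraries in the other 88. The classes towards DOX (between, within and beyond) were together about as large as the class away from it. Among the 5309 rows called at over 2-fold, the median position of replicate 3 was 0.00183 on a scale where 0 is the mean log2 level of replicates 1 and 2 and 1 is the mean with DOX. Replicate 3 differed by over 2-fold from the mean of replicates 1 and 2 in 4241 of the tested rows, 2105 higher and 2136 lower. Replicates 1 and 2 differed from each other that much in 380. The cause of the difference was not tested, and the main counts below are given with and without replicate 3.

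**Figure D2:**
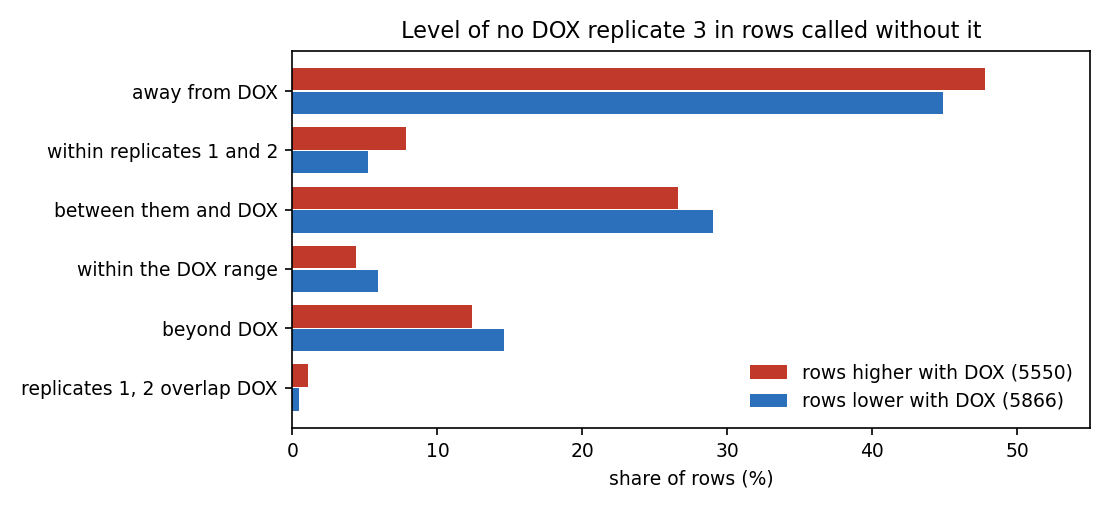
Where the level of replicate 3 without DOX fell, as a share (percent) of the rows called with that library left out, drawn apart for the 5550 rows higher and the 5866 rows lower with DOX. The side away from DOX is drawn as a single class (47.8% and 44.9%). The side towards DOX is split into rows between replicates 1 and 2 and the DOX libraries (26.6% and 29.0%), within the DOX range (4.36% and 5.88%) and beyond it (12.4% and 14.6%). The 2 sides are of like size.

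Rows that differed between DOX and no DOX were numerous and ran in both directions. Of 14877 tested rows, 8785 were called, or 59.1%, at a Benjamini-Hochberg adjusted p under 0.05 in edgeR's quasi-likelihood test. Of these, 4134 rose (27.8% of tested rows) and 4651 fell (31.3%), so that 52.9% of the calls were lower. Counts were scaled with TMM, which assumes that most rows do not move on balance. Scaled by library size alone, 2672 rows rose and 6775 fell, and 71.7% of the calls were lower. The median log2 fold change of all tested rows was −0.08 with TMM and −0.47 by library size, a shift of −0.39. The near balance of rising and falling rows therefore rests on the scaling. With replicate 3 without DOX left out, 11416 of 15188 tested rows (75.2%) were called, 5550 higher and 5866 lower. When replicate 2 or replicate 3 of the DOX libraries was left out, the share called was 49.4% and 49.2%. The fetal libraries share the fit, and on the 6 libraries alone 7328 of 14054 tested rows (52.1%) were called.

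The typical change was moderate. The median size of the log2 fold change was 0.77 over all tested rows, or 1.70-fold, with a middle range of rows from 0.35 to 1.45. Over the called rows it was 1.22, or 2.33-fold, with a median standard error of 0.20. Rising and falling rows had like medians, 1.20 and 1.25 in size. For scale, the median size of the difference in log2 CPM was also taken between single libraries, which is another measure than the fitted change. Between replicates 1 and 2 without DOX it was 0.09, between replicate 3 and each of them 0.64 and 0.62, and among the DOX libraries 0.08 to 0.17. For pairs that cross the groups it was 0.68 to 0.72 with replicates 1 and 2, and 0.96 to 1.06 with replicate 3. In 7158 called rows (81.5%) the difference between the group means was larger than the whole range of the 3 libraries without DOX. In 8662 (98.6%) it was larger than the range of the 3 with DOX. The test picks rows whose difference is large against the spread, so both shares follow in part from that choice. Replicate 3 lay further from the mean of replicates 1 and 2 than the DOX mean did in 6701 of all tested rows (45.0%) and in 1628 of the called rows (18.5%), which the test picks for a small spread.

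Changes over 2-fold were common, and changes over 8-fold were a small share of the table. Of the called rows, 5341 had a fitted change over 2-fold (35.9% of tested rows), 2456 higher and 2885 lower. Over 4-fold there were 958 higher and 1116 lower, over 8-fold 449 and 477 (6.22% of tested rows together), over 16-fold 225 and 262, and over 64-fold 58 and 101. Without replicate 3 the calls over 2-fold numbered 2577 higher and 2732 lower, and those over 8-fold 473 and 487. A stricter test, which asks whether a row moved by more than 2-fold and not only whether it moved, called 1580 rows higher and 1679 lower (edgeR glmTreat, 21.9% of tested rows). Without replicate 3 that test called 1956 higher and 2024 lower. The groups of 3 did not overlap in 9632 tested rows (64.7%), with all DOX libraries higher in 4734 (31.8%) and all lower in 4898 (32.9%), and 8542 of the 9632 were called. Another 1090 rows had groups that did not overlap and were not called.

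**Figure D3:**
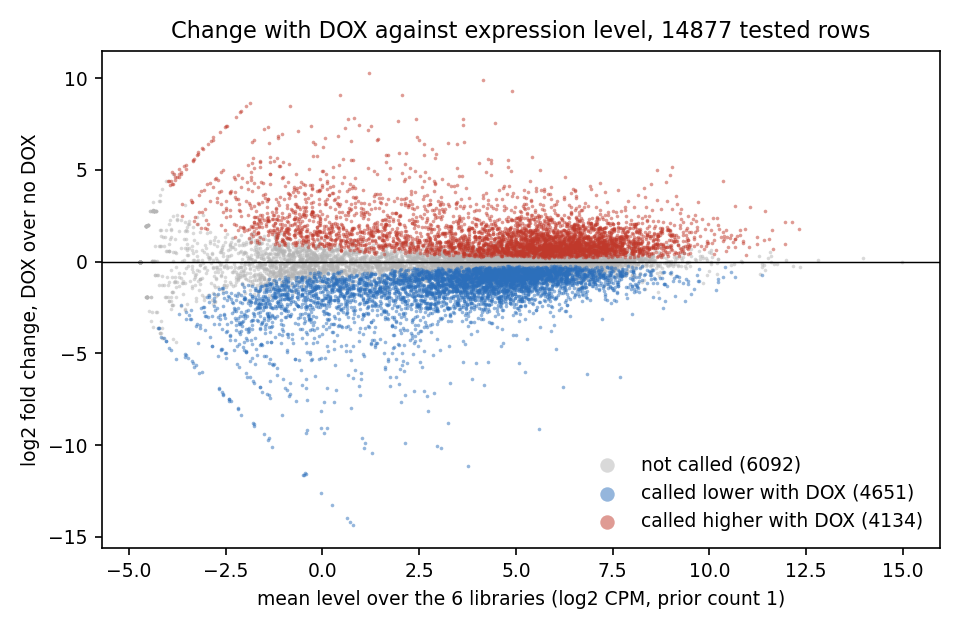
Log2 fold change of DOX over no DOX against the mean level over the 6 libraries (log2 CPM with a prior count of 1) for the 14877 tested rows, 1 point a row. Red points are the 4134 rows called higher, blue points the 4651 called lower and grey points the 6092 not called. Points at low level spread widest, and the diagonal streaks at the left edge are rows with few or 0 counts in a group. Their fitted change depends on edgeR's own prior count, which is not the 1 of the level axis.

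The direction of the change depended on how abundant a row was. The tested rows were sorted into 5 classes of equal size by their mean level over the 6 libraries, with median levels of 0.511, 4.85, 19.8, 47.7 and 140.0 CPM. In class 1, the lowest, 618 rows rose and 904 fell. In class 2, 665 rose and 1259 fell, and in class 3, 593 rose and 1190 fell. The order turned in class 4, with 896 higher and 805 lower. In class 5, the most abundant rows, 1362 rose and 493 fell. Falling rows thus made up 59.4%, 65.4%, 66.7%, 47.3% and 26.6% of the calls from class 1 to class 5.

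The difference in direction between low and high levels had the same form with TMM and by library size, but the level at which rising rows outnumber falling ones did not. By library size alone, falling rows made up 69.8%, 77.3%, 83.4%, 73.1% and 51.0% of the calls, so that no class had more rising than falling rows. Relative to the median of all rows under the same scaling, the median log2 fold change was −0.21, −0.34, −0.23, 0.10 and 0.45 in classes 1 to 5 with TMM. By library size it was −0.22, −0.33, −0.22, 0.10 and 0.45. A change of scaling shifts all rows by nearly the same amount, and the classes were the same under both. Once each median is taken off, the values had to be nearly equal, so their likeness is no separate support. Without replicate 3, falling rows were 57.2%, 63.1%, 63.5%, 47.8% and 29.6% of the calls.

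**Figure D4:**
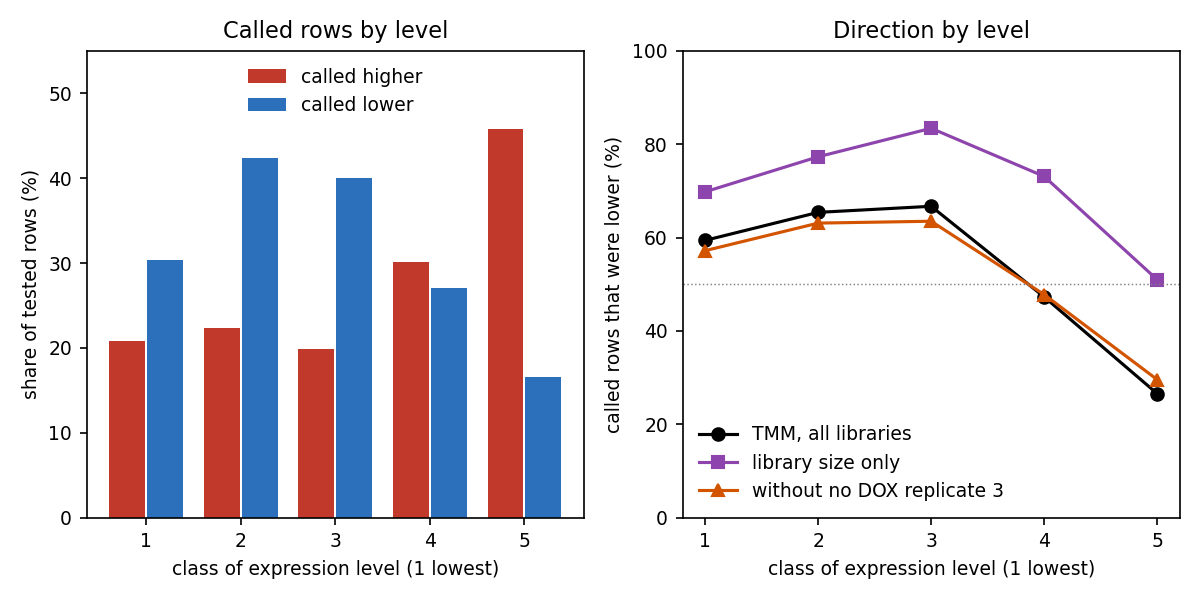
Left, the share (percent) of tested rows called higher and lower with DOX in 5 classes of expression level with equal numbers of rows. Right, the share of the called rows that were lower, with TMM scaling, with library size only and without replicate 3 without DOX. With TMM this share was 66.7% in class 3 and 26.6% in class 5, and by library size it was 83.4% and 51.0%.

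Size ran the other way. The median size of the log2 fold change was 1.30 in class 1, 0.96 in class 2, 0.68 in class 3, 0.56 in class 4 and 0.66 in class 5. The median standard error fell from 0.45 in class 1 to 0.17 in class 5, so low rows were measured with less precision. Calls over 8-fold made up 17.0% of class 1, 9.01% of class 2, 2.35% of class 3 and 1.38% of each of classes 4 and 5. In class 5, 38 rows rose and 3 fell by that much. The share of rows called was 51.1%, 64.7%, 59.9%, 57.2% and 62.3% from class 1 to class 5. Without replicate 3 it was 53.8%, 76.3%, 78.8%, 81.1% and 85.7%. On the 6 libraries alone, with classes formed from the rows tested there, it was 54.9%, 56.1%, 49.5%, 47.1% and 53.2%. How the share called ran with level therefore depended on the libraries in the fit, since the fetal libraries also count in the filter. The share called by the test against 2-fold was 29.3% in class 1, 30.9% in class 2 and 16.7% in class 5.

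The most abundant rows of the organoids were partly exchanged. Of the 100 rows with the highest mean share of counts without DOX, 57 were also among the 100 highest with DOX. Of the same 100 rows, 34 were called higher and 27 lower. For scale, 27.8% of all tested rows were called higher and 31.3% lower, and of the 2976 rows of class 5, 1362 were called higher and 493 lower. Of the 100 rows highest with DOX, 76 were called higher and 1 lower, and 47 rose by the test against 2-fold. These rows were picked by their level in one group, which favours rows that are high there. Without replicate 3, 56 of the 100 were shared, 52 of the 100 highest without DOX were called higher and 27 lower, and 87 of the 100 highest with DOX were called higher. In class 5 as a whole 1835 rows were then called higher and 770 lower, and 85.7% of the class was called.

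Both rows at the very top kept their place. The most abundant row of the table held 3.38%, 3.39% and 3.39% of the counts without DOX and 2.51%, 2.33% and 2.78% with DOX. In TMM-scaled CPM its groups overlapped, and its log2 fold change was −0.04 ± 0.17 (SE, edgeR adjusted p = 0.866). The row at rank 2 held 1.87%, 1.47% and 1.41% without and 1.59%, 1.42% and 1.12% with DOX, and its log2 fold change was 0.18 ± 0.18 (SE, edgeR adjusted p = 0.404). The rows at ranks 3 and 4 with DOX had stood at ranks 24 and 20 without it. The first of them held 0.174%, 0.208% and 0.280% of the counts without DOX and 0.831%, 0.778% and 0.746% with DOX. Its log2 fold change was 2.19 ± 0.23 (edgeR adjusted p = 5.2e-05). The other held 0.238%, 0.274% and 0.341% without DOX and 0.802%, 0.744% and 0.733% with DOX, at 1.78 ± 0.19 (edgeR adjusted p = 6.7e-05). In neither row did the groups overlap, and replicate 3 was the highest of the libraries without DOX in both.

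The counts that moved were spread over many rows. Between the mean shares of the groups, 27.7% of the counts lay in different rows, or 26.1% without replicate 3. The 513 rows with the largest differences carried 50% of this, 309 of them with a gain and 204 with a loss, and 4693 rows carried 90% of it. The 100 most abundant rows accounted for 23.3% of the difference, near the 21.0% to 26.9% of counts that the 100 highest rows of each library held. The rows of classes 1 to 3 accounted for 11.9%, and their share of all counts was not computed. The number of rows needed to hold 50% of a library's counts was 953, 975 and 643 without DOX and 577, 579 and 595 with DOX, so the groups did not overlap but replicate 3 lay near the DOX libraries. The number of rows at 1 CPM or more was 12555, 12449 and 12642 without DOX and 12293, 12291 and 12382 with DOX. Each of these 2 differences had an exact two-sided permutation p of 0.1, the smallest that 3 against 3 can give, and 0.3 after adjustment over the 6 library measures compared. The other 4, total counts, rows with any count and the shares of the 10 and the 100 highest rows, overlapped between the groups, with exact permutation p from 0.3 to 0.9.

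Switching between silence and expression was rare. A row was counted as switched on when it had 0 counts in each library without DOX and at least 1 CPM in each library with DOX, and as switched off in the reverse case. By this rule 5 of the 27179 rows were switched on (0.0184%) and 16 were switched off (0.0589%). They made up 0.0614% of the 8148 rows at 0 counts without DOX and 0.133% of the 12050 rows at 1 CPM or more in each library without DOX. In all, 11380 rows were at 1 CPM or more in each of the 6 libraries. Another 640 rows were at that level in each library with DOX but not in each library without it, and 670 the other way round. With levels under 0.1 CPM taken as silent in place of 0 counts, 28 rows were switched on and 46 off.

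The rows switched on reached low levels, with means from 1.15 to 1.90 CPM with DOX. A count of 0 over the 3 libraries without DOX allows a level of up to 0.0405 CPM (3 counts over the group, counting error only), so these rows were at least 27.9-fold to at least 47.4-fold higher with DOX. The strongest of them had 0, 0 and 0 counts without DOX and 32, 45 and 59 with DOX. The count of 5 depends on single libraries, since 11 rows were switched on without replicate 1, 10 without replicate 2 and 6 without replicate 3 of the libraries without DOX.

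The rows switched off had come from higher levels, from 2.20 to 102 CPM without DOX, and 9 of the 16 had a mean of 10 CPM or more. Against the floor of 3 counts over the DOX libraries they were at least 48.5-fold to at least 1767-fold lower. The row with the highest level among them had 1721, 1299 and 2521 counts in replicates 1 to 3 without DOX and 0 in each of the 3 DOX libraries. At 49.5, 47.7 and 209 CPM, replicate 3 stood far above replicates 1 and 2. Leaving out replicate 3 left the count at 16, and leaving out DOX replicate 3, the deepest library, raised it to 25. Leaving out a library removes a condition of the rule, so the count can rise but cannot fall.

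Few of the large changes met the switching rule, 2.27% of the 926 calls over 8-fold, but many involved rows of very low level. In 662 of the 926 (71.5%) the lower group had a mean under 1 CPM, and in 239 (25.8%) each of its libraries was under 0.1 CPM. Among the 449 that rose over 8-fold, 40 had 0 counts and 59 had 1 to 3 counts without DOX, and 286 (63.7%) had a mean under 1 CPM there. Another 101 started from 1 to 10 CPM and 62 from 10 CPM or more. Among the 477 that fell over 8-fold, 47 had 0 and 89 had 1 to 3 counts with DOX, and 376 (78.8%) ended under 1 CPM, against 92 that ended from 1 to 10 CPM and 9 that ended at 10 CPM or more. For rows with 0 to 3 counts in a group, the fitted fold is set in part by edgeR's prior count and is no measured size.

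For 4 rows the values are given library by library, by a rule of size, expression level and groups that do not overlap. They are named by their place in the table, counted from 1 below the header. Row 248 had 1, 3 and 0 counts without DOX and 1332, 1589 and 2262 with DOX, or 0.0463 ± 0.0571 against 72.6 ± 3.56 CPM (SD, n = 3 each). The DOX libraries lay close together and far above a background of 4 counts in all. The ratio was 1354 with an exact 95% counting interval from 529 to 4970, and the log2 fold change was 10.27 ± 0.30 (SE, edgeR adjusted p = 1.85e-07). With so few counts without DOX it ran from 9.81 without replicate 1 to 11.44 without replicate 2 of that group. Row 3318 had 20, 15 and 6 counts without DOX and 10742, 11708 and 15274 with DOX, or 0.541 ± 0.0394 against 535 ± 22.2 CPM (SD, n = 3 each). It was detected in every library without DOX at a like level, replicate 3 included. Its log2 fold change was 9.91 ± 0.25 (SE, edgeR adjusted p = 1.25e-07).

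Row 23068 had 12295, 8850 and 16441 counts without DOX and 8, 7 and 6 with DOX, or 681 ± 592 against 0.312 ± 0.107 CPM (SD, n = 3 each). The spread without DOX came from replicate 3, at 1364 CPM against 353.5 and 325 in replicates 1 and 2. Its log2 fold change was −11.12 ± 0.84 (SE, edgeR adjusted p = 8.17e-06), or −10.14 without replicate 3. Row 23051 had 1600, 1154 and 2044 counts without DOX and 1, 3 and 0 with DOX. Its log2 fold change was −10.44 ± 0.94 (SE, edgeR adjusted p = 2.27e-05). It was −9.50 when replicate 3 of no DOX was left out and −11.72 when replicate 2 of the DOX libraries was left out. In CPM it stood at 46.0, 42.4 and 169.6 without DOX, again with replicate 3 on top. Both rows were very low in every DOX library, and neither direction rests on replicate 3.

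Both falling rows lie in a stretch of 30 consecutive rows, chosen after the values were seen because it held the most rows switched off (6 of the 16). All 24 tested rows of the stretch were called lower and 0 were called higher, while 31.3% of all tested rows were called lower. Their fitted log2 fold changes ran from −14.37 to −6.01, where the lowest are of rows with 0 counts and are no measured size, and in each of the 24 the groups did not overlap. In sum the 30 rows had 67746, 46818 and 83732 counts without DOX and 506, 497 and 699 with DOX. They held 0.212%, 0.188% and 0.658% of the counts without DOX, so replicate 3 was over 3 times as high as replicates 1 and 2, and 0.00213%, 0.00178% and 0.00189% with DOX. What orders the rows is not stated, and near-identical neighbours could share reads, so the 24 rows are not independent measurements.

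**Figure D5:**
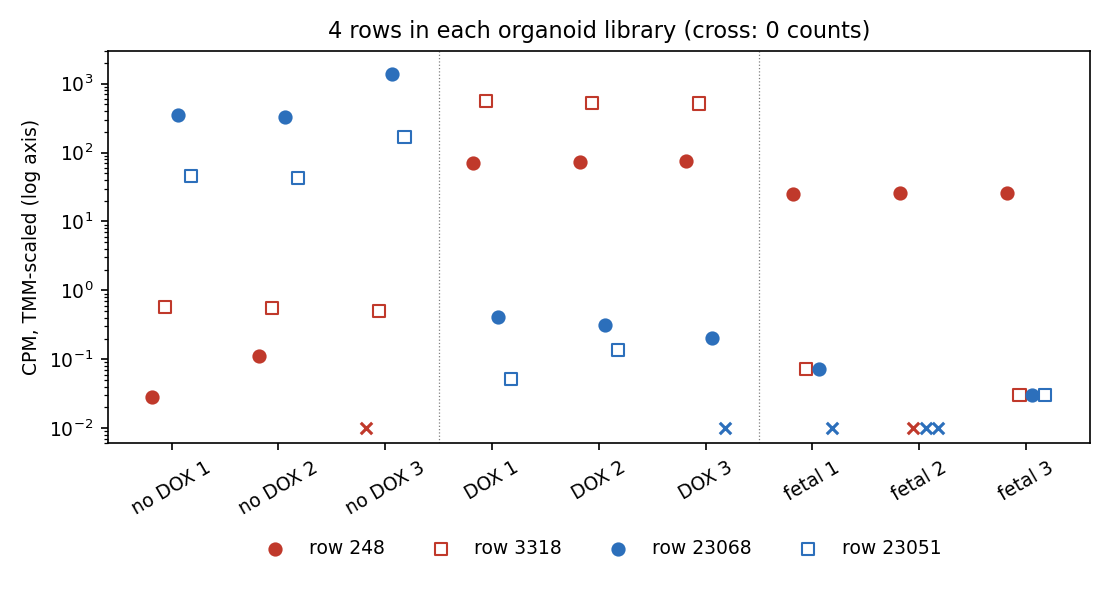
Level (CPM, TMM-scaled, log axis) of 4 rows in each of the 9 organoid libraries, with a cross at the bottom for 0 counts. Rows 248 and 3318 are high in the 3 DOX libraries and rows 23068 and 23051 in the 3 libraries without DOX, where replicate 3 is the highest for both falling rows. In the fetal libraries row 248 stands near 25 CPM and the other 3 rows at or under 0.0717 CPM.

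The fetal organoid libraries came from another genotype and age than the 6 libraries, and their levels are set beside them without a test. Row 248 stood at 24.7, 25.6 and 25.9 CPM in fetal organoids, between its levels without and with DOX. Row 3318, at 535 CPM with DOX, had 2, 0 and 1 counts there. The stretch of 30 rows that fell with DOX had 7, 9 and 2 counts in all in the fetal libraries. Of the 5 rows switched on, 3 were at 1 CPM or more in each fetal library. They belong to the 640 rows at that level in each library with DOX but not in each without it, and 358 of the 640 (55.9%) were. Of the 1301 other rows with 0 counts without DOX and any count with DOX 51 were (3.92%), but these did not reach 1 CPM in each library with DOX. Of the 16 rows switched off, 8 had 0 counts in the fetal libraries, 5 of the 6 inside the stretch of 30 rows and 3 of the 10 outside it. Of the 670 rows at 1 CPM or more in each library without DOX but not in each with DOX, 7.91% had 0 fetal counts, and of all 12050 rows at that level without DOX 0.954% did.

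Over the larger sets the fetal levels differed less. The 1580 rows that rose by the test against 2-fold had median levels of 7.99 CPM without DOX, 44.3 CPM with DOX and 16.9 CPM in fetal organoids. The 1679 rows that fell had 14.0, 2.27 and 9.59 CPM. All tested rows had 22.1, 18.8 and 21.0 CPM. Of the rows that rose, 76.9% were at 1 CPM or more in each fetal library, and of the rows that fell 73.5%, against 83.1% of all tested rows. Rows of both sets were mostly expressed in fetal organoids, as were the tested rows in general. The fetal libraries also count in the filter, and 43 tested rows had 0 counts in the 6 libraries. The fetal values of the tested rows, the reference above all, are therefore not free of the filter.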

How the data were processed

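RNA-seq counts of mouse organoids were taken from the authors' deposited organoid table, whose values are whole-number counts per row with no normalization, as read from the values. Per the submitters' processing notes, the build was mm10 and the tools named are featureCounts and edgeR. No source used here gives the aligner, annotation, strand setting or versions. The table of sorted cells was not used here. Sample titles gave the group and replicate number of each library.

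The 9 organoid libraries were fitted together with edgeR 4.0.16 in R 4.3.3 (TMM, filterByExpr by group, quasi-likelihood test, group means only), and the contrast was DOX against no DOX. Of the 27179 rows, 14877 passed the filter, 43 of them with 0 counts in the 6 libraries, since the fetal libraries also count in it. On the 6 libraries alone 14054 passed. A standard error is the log2 fold change divided by the square root of F and is approximate. CPM is scaled by TMM. Intervals and floors cover counting error only. Total counts of 12724510 to 36977226 set the precision of low rows.

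The named rows were called, did not overlap between groups, had an average log2 CPM of at least 3 and counts in both groups, and had the 2 largest positive and 2 largest negative log2 fold changes. The comparison, its rules and lists were chosen with earlier results of these data known. The alternatives tried were scaling by library size only or by RLE size factors, DESeq2 1.42.0, limma 3.58.1 voom with sample quality weights, 2 other filters, the 6 libraries alone, a replicate block, and each library left out. The fit was tested on simulated data in which few rows changed and all groups had the same spread. That test does not cover the unequal spread of these groups or a change in most rows.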

Additional observations from a re-analysis of the deposited data

How the results depend on the processing

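Deviations from the group means correlated by −0.32, 0.14 and −0.17 between libraries of replicate numbers 1 to 3. These values cannot decide whether the numbers pair the libraries, since replicate 3 without DOX dominates the deviations of its group. With the replicate block, on the 6 libraries only, 5688 rows were called, 2789 of them lower, and 2147 passed the test against 2-fold. The share of calls that were lower was then 49.0%, and 46.2% and 41.1% of the lowest and highest level class were called. Among the rows called both in the reported fit and under an alternative listed here, 0 changed direction. A row called in both fits of the same counts can hardly do so, and this value therefore says little. By library size only, 1462 of the reported calls were lost and 2124 others gained. With the replicate block 3111 were lost and 14 gained.

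Called rows numbered 8753 with RLE size factors, 9447 by library size only (2672 higher), 9349 with DESeq2, 9044 with no filter on low counts, 8291 with at least 1 CPM in 3 libraries, 7328 on the 6 libraries only and 11820 with voom and sample quality weights, which gave replicate 3 without DOX a weight of 0.0349. Lower calls made up 49.5% with RLE, 71.7% by library size, 49.9% with DESeq2, 50.6% on the 6 libraries and 51.4% with voom. The share called in the lowest class was 56.2% by library size, 2.06% with no filter, where that class holds rows with almost no counts, 60.1% with at least 1 CPM, 54.9% on the 6 libraries and 62.4% with voom. In the highest class it was 57.9% by library size, 68.4% with DESeq2, 58.4% with no filter, 53.2% on the 6 libraries and 87.9% with voom. With each library left out in turn, called rows ran from 7446 (replicate 3 of the DOX libraries left out) to 11416 (replicate 3 of no DOX left out). Higher calls ran from 3618 to 5550, lower calls from 3828 to 5866 and calls past 2-fold from 2754 to 3980. The median size of the log2 fold change ran from 0.70 to 0.83. Lower calls then made up 51.3% to 54.1%, and 41.3% to 53.8% of the lowest and 52.1% to 85.7% of the highest class were called. The share of counts placed differently ran from 26.4% to 30.9%.

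Rows switched on numbered 9 at 0.5 CPM, 0 at 2 CPM, 28 with silence under 0.1 CPM and 3 by library size only, and 5 to 11 without single libraries. Rows switched off numbered 46 with silence under 0.1 CPM and 16 to 25 without single libraries. By the rule, leaving out a library can raise but cannot lower either count. The 4 named rows kept their direction and call under every setting listed. Summaries of calls over 2-fold and 8-fold and of the top 100 rows without replicate 3 were chosen after seeing the data. Depth limits what a count of 0 shows to levels above about 0.04 CPM, and the low level classes are the least precise.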
